A study of Mus musculus with 6 samples.

Results

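The 9 genes described here belong to one epithelial system and were followed across 6 RNA sequencing libraries: the epithelial sodium channel genes Scnn1a, Scnn1b and Scnn1g, the water channel genes Aqp3 and Aqp5, the protease genes Prss8 and St14, and the protease inhibitor genes Spint1 and Spint2. They were taken by symbol from the authors' table, which held 1 row for each of them among 49671 genes. The group was chosen on measured values of these same libraries, since the low Scnn1a and Aqp5 in the knock-downs were already known, so the levels of all 9 are a description here and carry no test of their own. The libraries came from LKPR EPCAM+ cells, a line sorted from a mouse skin squamous cell carcinoma. All cells, controls included, carry Lgr5CreER, a recombinase driven from the Lgr5 locus, together with floxed p53 (p53fl/fl) and the fluorescent reporter Rosa26-YFP+/+. There were 2 libraries of cells transduced with a lentiviral vector against Ntn1, the gene of the secreted protein netrin-1, 2 of cells with a vector against Unc5b, which encodes a netrin receptor, and 2 of cells with the empty vector. Cells were cultured for 6 days in medium that contained hydrocortisone and thyroid hormone, and living cells positive for YFP and EPCAM were sorted. The results describe 1 cell line in culture, and the labels do not state whether the 2 libraries of each group were grown or transduced apart, so their spread, and any p-value built on it, may be technical.

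The epithelial sodium channel, ENaC, lets sodium enter epithelial cells from the outer side. It is built from an alpha, a beta and a gamma subunit, encoded by Scnn1a, Scnn1b and Scnn1g, and its open state depends on cleavage of the alpha and gamma subunits by serine proteases. Prostasin, the product of Prss8, and matriptase, the product of St14, are membrane-bound proteases that act in a common cascade at the epithelial surface, and the Kunitz-type inhibitors encoded by Spint1 and Spint2 hold them in check. In mouse skin the loss of Scnn1a, Prss8 or St14 disturbs the epidermal barrier, and the loss of Spint1 leaves matriptase uncontrolled. Aqp3 encodes a channel for water and glycerol of the basal epidermis, and Aqp5 a water channel of glands and of lung epithelium.

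Values are the authors' reads per gene scaled to 20 M per library and rounded, and every level below is in that unit. The lowest unit of each library showed that 6.54 to 10.2 M reads had been counted. Ntn1 was at 359 and 431 in the Ntn1 knock-down, 1319 and 771 in the Unc5b knock-down, against 1566 and 2588 in the empty vector, and Unc5b was at 2311 and 2382, 419 and 352, and 1527 and 1573 in the same order of groups, so each targeted gene was lowest in the libraries labelled with its knock-down. All 7 epithelial markers examined were present, with Epcam between 8032 and 10127 and Krt8 between 15208 and 20874. The other markers were less even. Krt5 was at 1034 and 1027 in the Ntn1 knock-down, 697 and 776 in the Unc5b knock-down, against 287 and 320 in the empty vector. In the same order Trp63 was at 33 and 31, 152 and 88, and 94 and 96. Krt14 was at 5233 and 4795, 1759 and 3817, and 3917 and 1692. Cdh1 was at 9380 and 8767, 6446 and 5719, and 7460 and 8419. Krt18 was at 14678 and 14442, 12621 and 12596, and 9797 and 11337. Of 15 markers of other cell types, 3 were at 0 in every library, Adgre1 and Dct among them, and Ptprc did not exceed 5. The summed level of these 15 was 861 and 904 in the Ntn1 knock-down, 1915 and 1291 in the Unc5b knock-down, against 1467 and 1767 in the empty vector, with the macrophage receptor gene Csf1r the highest of them (347 and 443, 1569 and 1003, 1213 and 1511) and the endothelial cadherin gene Cdh5 seen almost only in the Ntn1 knock-down (86 and 113, 2 and 0, 0 and 0). Exons of Csf1r overlap those of Hmgxb3 on the other strand, so its level is uncertain. The part of these markers in the results was not tested, and in bulk RNA fewer cells that express a gene and less RNA per cell cannot be told apart.

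The sodium channel subunits stood at very different levels, and the alpha and gamma subunits were lower in the knock-downs. Scnn1a (ENSMUSG00000030340, chromosome 6, 125320659 to 125344943, plus strand, in the GRCm38 build) had values of 57 and 70 in the Ntn1 knock-down, 227 and 81 in the Unc5b knock-down, against 407 and 1475 in the empty vector. Both libraries of each knock-down lay below both empty vector libraries, but the empty vector libraries themselves were 3.62-fold apart, a wider gap than 99.5% of the genes tested showed on the log2(value + 5) scale. The group means were 14.8-fold lower in the Ntn1 knock-down (63.5 ± 9.2 against 941 ± 755, SD, n = 2) and 6.11-fold lower in the Unc5b knock-down (154 ± 103). Set against empty vector library 1 alone, the lower of the pair, the Ntn1 knock-down mean was 6.41-fold lower and the Unc5b knock-down mean 2.64-fold lower.

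Scnn1g (ENSMUSG00000000216, chromosome 7, 121734479 to 121768475, plus strand) was at 2 and 3 in the Ntn1 knock-down, 11 and 16 in the Unc5b knock-down, against 16 and 105 in the empty vector. The Ntn1 knock-down values correspond to 1 read in each library, against 8 and 46 reads in the empty vector libraries. On these reads the empty vector was 21.3-fold higher, with an exact 95% counting interval of 5.63 to 181, which covers counting error only and not the 6.56-fold gap between the empty vector libraries. The Unc5b knock-down overlapped the empty vector, since its library 2 and empty vector library 1 were both at 16. Scnn1b (ENSMUSG00000030873, chromosome 7, 121865038 to 121918514, plus strand), the neighbouring beta subunit gene, was near the limit of detection at 5 and 12 in the Ntn1 knock-down, 9 and 0 in the Unc5b knock-down, against 0 and 5 in the empty vector. No library held more than 4 reads of Scnn1b, so no difference was detectable at this depth.

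Of the water channels, Aqp5 was the member that separated the groups most cleanly. Aqp5 (ENSMUSG00000044217, chromosome 15, 99590782 to 99594829, plus strand) was at 107 and 156 in the Ntn1 knock-down, 169 and 86 in the Unc5b knock-down, against 1362 and 1610 in the empty vector. The empty vector libraries were 1.18-fold apart, close to the median of 1.2 over all genes tested, and every knock-down library lay far below both. Within the knock-downs the gaps were wider, 1.46-fold in the Ntn1 and 1.97-fold in the Unc5b knock-down. On the log2(value + 5) scale, 88.3% and 96.2% of the genes tested had smaller gaps in these groups. Against the empty vector the Aqp5 mean was lower by 11.3-fold in the Ntn1 knock-down (131.5 ± 34.6 against 1486 ± 175) and 11.7-fold lower in the Unc5b knock-down (127.5 ± 58.7). The knock-downs overlapped each other, and their difference on the log2 scale was 0.09 ± 0.32 (SE).

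Aqp3 (ENSMUSG00000028435, chromosome 4, 41092722 to 41098183, minus strand) showed a smaller and different pattern. It was at 231 and 196 in the Ntn1 knock-down, 327 and 331 in the Unc5b knock-down, against 307 and 322 in the empty vector. Both Ntn1 knock-down libraries lay below both empty vector libraries, with the empty vector mean 1.47-fold higher. Both Unc5b knock-down libraries lay just above them, with a mean 1.05-fold that of the empty vector. Per kilobase of exon, Aqp5 stood at 0.33 and 0.56 times Aqp3 in the Ntn1 knock-down and 0.36 and 0.18 times in the Unc5b knock-down, against 3.12 and 3.52 times in the empty vector, so Aqp3 was the more abundant of the pair in the 4 knock-down libraries and Aqp5 in the 2 empty vector libraries.

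**Figure D1:**
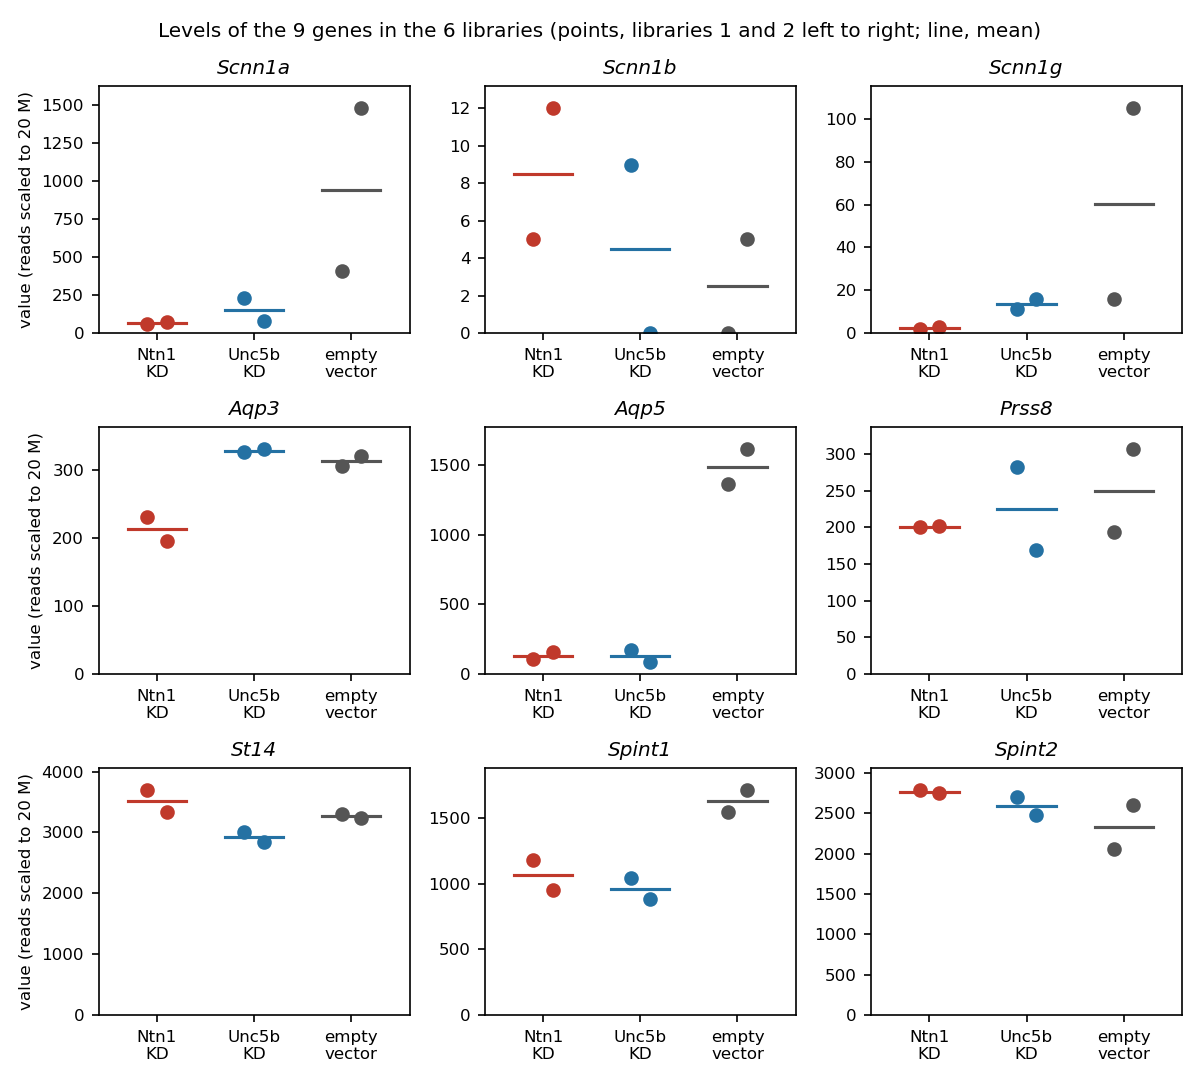
Level of each of the 9 genes in the 6 libraries (y axis, reads scaled to 20 M, starting at 0 and with its own range in each panel; KD, knock-down). Points are libraries 1 and 2 from left to right and lines are the means of 2; Aqp5 and Scnn1a are lower in all 4 knock-down libraries, and the empty vector libraries are far apart for Scnn1a (407 and 1475) and Scnn1g (16 and 105).

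Both protease genes were measured in every library. St14 (ENSMUSG00000031995, chromosome 9, 31089402 to 31131853, minus strand), the matriptase gene, was at 3690 and 3333 in the Ntn1 knock-down, 3009 and 2835 in the Unc5b knock-down, against 3302 and 3235 in the empty vector. The Ntn1 knock-down lay above and the Unc5b knock-down below the empty vector, by a log2 fold change of 0.10 ± 0.11 and -0.16 ± 0.11. Prss8 (ENSMUSG00000030800, chromosome 7, 127925716 to 127930104, minus strand), the prostasin gene, was at 200 and 202 in the Ntn1 knock-down, 282 and 169 in the Unc5b knock-down, against 193 and 306 in the empty vector, and all 3 groups overlapped. Exons of Prss8 overlap those of Kat8 on the other strand, and the strand setting of the counting is not given in the sources used here, so reads of these genes cannot be told apart.

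The inhibitors went different ways. Spint1 (ENSMUSG00000027315, chromosome 2, 119237362 to 119249527, plus strand) was at 1184 and 954 in the Ntn1 knock-down, 1043 and 882 in the Unc5b knock-down, against 1547 and 1710 in the empty vector. All 4 knock-down libraries were below both empty vector libraries, by 1.52-fold in the mean for the Ntn1 knock-down and 1.69-fold for the Unc5b knock-down. Spint2 (ENSMUSG00000074227, chromosome 7, 29256323 to 29281912, minus strand) was at 2784 and 2758 in the Ntn1 knock-down, 2708 and 2474 in the Unc5b knock-down, against 2064 and 2600 in the empty vector. For Spint2 the Ntn1 knock-down lay above both empty vector libraries and the Unc5b knock-down overlapped them.

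The inhibitors and proteases were also compared with each other within each library. Per kilobase of exon, Spint1 stood at 0.89 and 0.79 times St14 in the Ntn1 knock-down, 0.96 and 0.86 times in the Unc5b knock-down, against 1.29 and 1.46 times in the empty vector. These ratios do not depend on the scaling of the libraries, and the knock-downs did not overlap the empty vector. Spint2 stood at 1.26 and 1.39 times St14 in the Ntn1 knock-down, 1.51 and 1.46 in the Unc5b knock-down, against 1.05 and 1.35 in the empty vector. Spint1 was below Spint2 per kilobase in every knock-down library (0.70 and 0.57 times in the Ntn1, 0.63 and 0.59 in the Unc5b knock-down) and above it in both empty vector libraries (1.23 and 1.08 times). Prss8 stood at 0.22 and 0.25 times St14, 0.39 and 0.25, and 0.24 and 0.39 in the same order of groups, with no separation.

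**Figure D2:**
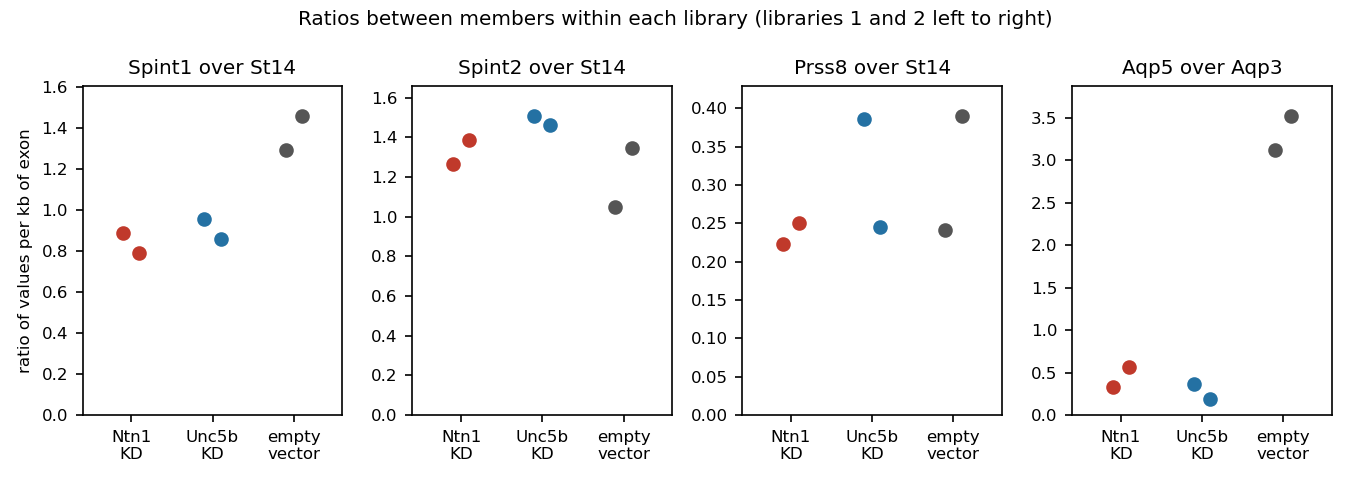
Ratio of 2 members within each library, each as value per kilobase of exon (y axes start at 0), for libraries 1 and 2 of each group from left to right. Spint1 over St14 lies at 0.79 to 0.96 in the 4 knock-down libraries against 1.29 and 1.46 in the empty vector, and Aqp5 over Aqp3 at 0.18 to 0.56 against 3.12 and 3.52, while Prss8 over St14 overlaps between all groups.

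The order of the 9 levels per kilobase differed between the groups. In the Ntn1 knock-down the order was Spint2 (608 ± 4.0), St14 (460 ± 33.1), Spint1 (386 ± 58.8), Aqp3 (117 ± 13.5), Prss8 (109 ± 0.76), Aqp5 (50.6 ± 13.3), Scnn1a (15.4 ± 2.2), Scnn1b (3.23 ± 1.9) and Scnn1g (0.84 ± 0.24). Aqp3 and Prss8 overlapped in that group. In the Unc5b knock-down the order was Spint2 (569 ± 36.3), St14 (383 ± 16.1), Spint1 (348 ± 41.1), Aqp3 (180 ± 1.5), Prss8 (122 ± 43.1), Aqp5 (49.1 ± 22.6), Scnn1a (37.3 ± 25.0), Scnn1g (4.51 ± 1.2) and Scnn1b (1.71 ± 2.4), with St14 and Spint1 and also Aqp5 and Scnn1a overlapping. In the empty vector it was Spint1 (589 ± 41.7), Aqp5 (572 ± 67.5), Spint2 (512 ± 83.2), St14 (428 ± 6.2), Scnn1a (228 ± 183), Aqp3 (172 ± 5.8), Prss8 (135 ± 43.1), Scnn1g (20.2 ± 21.0) and Scnn1b (0.95 ± 1.3). Among these Spint1, Aqp5 and Spint2 overlapped each other, as did Scnn1a with Aqp3 and Prss8, while both Spint2 libraries lay above both St14 values. Lengths are those of all annotated exons of a gene joined, so levels of genes with long minor transcripts are understated.

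On the log2(value + 5) scale, fitted over 15330 genes with a mean of at least 20, 8 of the 9 members could be compared and Scnn1b, with a mean of 5.17, could not. Scnn1a was at -3.52 ± 0.61 (SE) in the Ntn1 knock-down and -2.47 ± 0.61 in the Unc5b knock-down against the empty vector. Aqp5 was at -3.47 ± 0.32 and -3.56 ± 0.32, Scnn1g at -2.68 ± 0.71 and -1.39 ± 0.71, Spint1 at -0.61 ± 0.15 and -0.76 ± 0.15, and Aqp3 at -0.55 ± 0.18 and 0.06 ± 0.18. Prss8 (-0.27 ± 0.30 and -0.15 ± 0.30) and Spint2 (0.26 ± 0.13 and 0.16 ± 0.13) stayed closer to 0. Both comparisons use the same empty vector libraries, so the paired values are not independent of each other. Scnn1a and Aqp5 were the 24th and 25th lowest of the genes tested in the Ntn1 knock-down and the 135th and 41st lowest in the Unc5b knock-down.

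**Figure D3:**
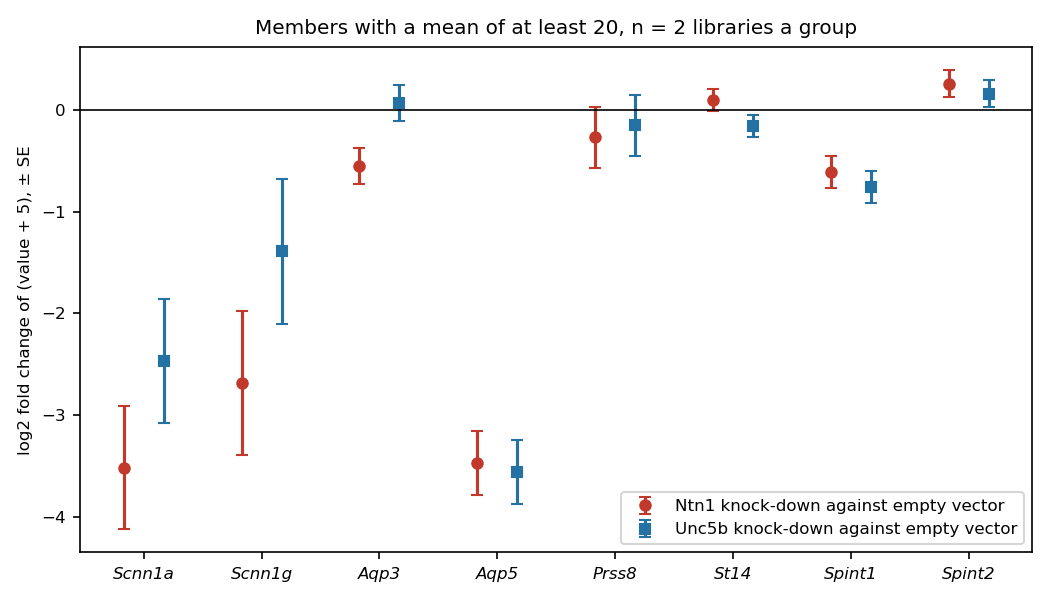
Log2 fold change of (value + 5) against the empty vector for the 8 members with a mean of at least 20, with bars of 1 SE and n = 2 libraries a group (circles, Ntn1 knock-down; squares, Unc5b knock-down). Scnn1a and Aqp5 lie between -2.47 and -3.56 in both comparisons, Spint1 at -0.61 and -0.76, and Prss8, St14 and Spint2 within 0.27 of 0.

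With limma and an adjusted p under 0.05, 4 of the 8 members (Scnn1a, Scnn1g, Aqp5 and Spint1, all lower) passed in the Ntn1 knock-down, where 15.1% of all genes tested passed, 8.04% as higher and 7.06% as lower. In the Unc5b knock-down 3 passed (Scnn1a, Aqp5 and Spint1, all lower), where 12.0% of all genes passed, 5.90% as higher and 6.07% as lower. Nothing is read from these counts, or from the refits of the same libraries given below, because the members were chosen with such values known. Scnn1g reached the mean of 20 only through the empty vector, its means being 2.5 in the Ntn1 knock-down, 13.5 in the Unc5b knock-down and 60.5 in the empty vector, so it could be tested only because it was high there. Aqp5 passed in both under each of the 15 alternatives tried, and it alone passed when no filter on low values was used. Without Ntn1 knock-down library 1 or 2 only Aqp5 passed in the Ntn1 knock-down, and without empty vector library 2 Aqp5 and Scnn1a did. In the Unc5b knock-down Aqp5 alone passed without its library 2, and Aqp5 and Spint1 passed without empty vector library 2 or without either Ntn1 knock-down library. With a replicate block, Spint1 was lost in the Ntn1 knock-down and Scnn1a in the Unc5b knock-down. Without the variance trend only Aqp5 and Scnn1a passed in the Ntn1 knock-down and only Aqp5 in the Unc5b knock-down. With voom on the recovered reads Scnn1g was lost in the Ntn1 knock-down and Scnn1a in the Unc5b knock-down. Scnn1g was also lost with a pseudocount of 20 and without either Unc5b knock-down library. Both Ntn1 knock-down libraries lay below both empty vector libraries for 5 of the 8 members, where 30.2% of all genes did, and above them for St14 and Spint2, where 28.0% did. In the Unc5b knock-down this held for 4 members below (Scnn1a, Aqp5, St14 and Spint1), where 23.2% of all genes did, and for 1 above (Aqp3), where 28.7% did. Between the Ntn1 and the Unc5b knock-down limma called 0 of the 8 members, where 7.10% of all genes passed, 4.15% as higher and 2.95% as lower, with an unadjusted p under 0.05 for 2 of the 8, and voom called 0 as well. Scnn1a, Scnn1g and Aqp3 were lower in both Ntn1 than in both Unc5b knock-down libraries, as were 31.3% of all genes, and St14 and Spint2 were higher, as were 24.4%.

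Genes whose levels over the 6 libraries were most like those of a member were found by the root mean square difference of the mean-centred log2(value + 5). The nearest to Aqp5 were Atoh8, a basic helix-loop-helix transcription factor gene (0.26), the collagen gene Col27a1 (0.29) and the prosaposin-like gene Psapl1 (0.30). The nearest to Scnn1a were Bmp4, a bone morphogenetic protein gene (0.27), Cd33, which encodes a sialic acid binding receptor (0.35), and Gstt1, a glutathione transferase gene (0.38). The nearest to Scnn1g were Ly6d, a keratinocyte surface protein gene (0.22), the G protein subunit gene Gng7 (0.45) and the long non-coding RNA gene 4732419C18Rik (0.48). Scnn1g had 1 read in each Ntn1 knock-down library and 46 in empty vector library 2, and entered this search only through the empty vector. Ly6d (5 and 6, 24 and 19, 31 and 146) and Gng7 (5 and 3, 13 and 19, 31 and 64) were low as well. The likeness to Scnn1g therefore rests on few reads and largely on empty vector library 2. In the order of likeness to Scnn1a, Scnn1g came at rank 37 and Aqp5 at rank 41, both at 0.72. Bmp4, as an example, was at 5 and 9 in the Ntn1 knock-down, 43 and 19 in the Unc5b knock-down, against 96 and 265 in the empty vector. Its higher value in empty vector library 2, as for Scnn1a, follows from its choice by likeness and is no separate result. Exons of Bmp4 overlap those of Gm15217 on the other strand, so its level is uncertain.

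None of the 4 tested genes outside the members that lie next to Scnn1a, Scnn1b and Scnn1g passed in either knock-down with limma. Over all genes tested, 15.1% passed in the Ntn1 and 12.0% in the Unc5b knock-down, so little can be read from so few genes. Scnn1g, itself the neighbour of Scnn1b, passed in the Ntn1 knock-down. Scnn1a lies between Ltbr and Tnfrsf1a, which encode receptors of the tumour necrosis factor family, at gaps of 6773 and 4418 bases. Ltbr (1565 and 1590 in the Ntn1, 1731 and 1506 in the Unc5b knock-down, 1608 and 2065 in the empty vector) did not pass in the Ntn1 or Unc5b knock-down (limma adjusted p = 0.392 and 0.506), and neither did Tnfrsf1a (1374 and 1336, 1577 and 1318, 1244 and 1575; adjusted p = 0.868 and 0.895). Usp31 beside Scnn1g (adjusted p = 0.23 and 0.61) and Cog7, whose gene span overlaps that of Scnn1b (0.653 and 0.736), did not pass either. The water channel genes Aqp2 and Aqp6, which flank Aqp5, did not exceed a value of 6 in any library.

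RefSeq promoter entries (GRCm38.p6) were given for 6 of the 9 members, Scnn1b, Scnn1g, Aqp3, Aqp5, Spint1 and Spint2. The 250 bases before the start are shown for Scnn1g, Spint1 and Aqp3. Their windows were free of annotated exons, as were those of Scnn1b and Spint2. Each of the genes shown was lower in both Ntn1 knock-down libraries, and Scnn1b and Spint2 were not. Spint1 and Aqp3 differed little there (log2 fold change -0.61 ± 0.15 and -0.55 ± 0.18), and Spint1 was also lower in the Unc5b knock-down. The letters of 6 motifs were searched on both strands. One motif was the E-box CAGGTG, of the kind bound by ZEB and SNAI factors. The GC box was searched as GGGCGG and the TATA box as TATAAA. The AP-1 motif was searched as TGANTCA. The glucocorticoid receptor half-site was searched as AGAACA. The grainyhead motif was searched as AACNGGTT. Capitals mark every match.
Scnn1g, chr7:121734229-121734478, plus strand: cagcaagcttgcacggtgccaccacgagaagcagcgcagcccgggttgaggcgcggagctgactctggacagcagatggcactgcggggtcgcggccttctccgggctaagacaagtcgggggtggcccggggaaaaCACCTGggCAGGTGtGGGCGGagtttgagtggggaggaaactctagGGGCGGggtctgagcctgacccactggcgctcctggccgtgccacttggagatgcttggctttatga
Spint1, chr2:119237110-119237359, plus strand: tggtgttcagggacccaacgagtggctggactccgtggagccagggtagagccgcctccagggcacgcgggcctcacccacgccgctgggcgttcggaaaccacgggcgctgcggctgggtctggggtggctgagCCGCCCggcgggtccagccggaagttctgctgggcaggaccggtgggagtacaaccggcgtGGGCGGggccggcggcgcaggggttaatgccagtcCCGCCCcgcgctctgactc
Aqp3, chr4:41098184-41098433, minus strand: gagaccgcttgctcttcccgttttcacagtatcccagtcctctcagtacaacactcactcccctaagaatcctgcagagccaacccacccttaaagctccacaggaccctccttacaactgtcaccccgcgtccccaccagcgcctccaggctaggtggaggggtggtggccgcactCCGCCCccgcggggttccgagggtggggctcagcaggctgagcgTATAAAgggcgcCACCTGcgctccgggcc
The Scnn1g window held 2 matches to CAGGTG, which were set in opposite orientations, and 2 to the GC box. The Spint1 window held 3 GC boxes, and the Aqp3 window 1 match each to CAGGTG, the GC box and the TATA box. Among the windows not shown, Spint2, which was not lower in either knock-down, held 3 matches to CAGGTG and 3 GC boxes, Scnn1b held 1 GC box, and Aqp5, whose window overlaps an annotated exon, held 2 GC boxes. Of 32851 promoter entries of this length, 17.2% held CAGGTG, 32.7% the GC box, 12.4% the TATA box, 6.75% TGANTCA, 16.1% AGAACA and 1.79% AACNGGTT. The member windows held from 60.8% (Scnn1b) to 78.4% (Aqp5) G and C, against a median of 52.4% over all entries. These shares are therefore not matched for base content. The matches are letters in a window and no evidence of binding.

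Around the 9 members, 92 genes of 5 lists were examined, namely regulators of ENaC and corticosteroid signalling, ion transport partners, other aquaporins, other epithelial serine proteases, and protease substrates with other inhibitors. Of these, 54 reached a mean of 20. The Ntn1 knock-down had 15 that rose and 5 that fell, 37.0% against 15.1% of all genes tested, with a median log2 fold change of 0.29 against -0.02 over all genes. The Unc5b knock-down had 10 that rose and 3 that fell, 24.1% against 12.0%, with a median of 0.16 against 0.04. The lists were drawn up with earlier results of these data known, so these shares are a description.

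Among 16 tested ENaC regulators and corticosteroid genes, the Ntn1 knock-down had 2 that rose and 2 that fell. The Unc5b knock-down had 2 that rose and 1 that fell. These were 25.0% and 18.8% of the list genes tested, against 15.1% and 12.0% of all genes tested. Nedd4l, the ubiquitin ligase that removes ENaC from the cell surface, was at 1301 and 1205 in the Ntn1 knock-down against 741 and 681 in the empty vector (log2 fold change 0.81 ± 0.14, adjusted p = 0.00671). Fkbp5, a classical glucocorticoid-induced gene, was at 1358 and 1327 in the Ntn1 knock-down against 3449 and 3533 (-1.38 ± 0.13, adjusted p = 0.000494). It was also lower in the Ntn1 than in the Unc5b knock-down (-1.16 ± 0.13, adjusted p = 0.00244). Other corticosteroid genes of the list did not pass with limma in the Ntn1 knock-down. These were Tsc22d3 (-0.69 ± 0.26, adjusted p = 0.119), Nr3c1 (-0.17 ± 0.12, adjusted p = 0.404) and Per1 (0.04 ± 0.13, adjusted p = 0.862). The kinase gene Stk39 fell in both (105 and 107 in the Ntn1, 43 and 90 in the Unc5b knock-down, 478 and 306 in the empty vector; adjusted p = 0.0116 and 0.0035). Wnk1, whose kinase acts on the Stk39 product, rose by 0.52 and 0.39 on the log2 scale (adjusted p = 0.00865 and 0.0346). Furin, a protease that cleaves ENaC subunits, rose in the Unc5b knock-down (4251 and 4308 against 3284 and 2819 in the empty vector, adjusted p = 0.0274) and was lower in the Ntn1 than in the Unc5b knock-down (adjusted p = 0.0117). Sgk1, the kinase that restrains the Nedd4l product, was at 5331 and 4966, 5292 and 7641, and 7242 and 6025 and did not pass in either knock-down.

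Among 11 tested ion transport partners, the Ntn1 knock-down had 4 that rose and 1 that fell. The Unc5b knock-down had 2 that rose and 1 that fell. These were 45.5% and 27.3% of the list genes tested, against 15.1% and 12.0% of all genes tested. Atp1b1, a beta subunit gene of the sodium pump, was at 97 and 122 in the Ntn1 knock-down, 107 and 151 in the Unc5b knock-down, against 269 and 512 in the empty vector (adjusted p = 0.0101 and 0.0211). Slc12a2, the sodium, potassium and chloride cotransporter gene, rose in both (5761 and 5391, 3561 and 3852, 2187 and 1742; adjusted p = 0.000385 and 0.00395), as did Fxyd5, a pump modulator gene (226 and 300, 143 and 206, 43 and 21; adjusted p = 0.00134 and 0.00448). The chloride channel gene Ano1 rose in the Ntn1 knock-down (7178 and 6871 against 5096 and 4488, adjusted p = 0.0111). Cftr, another chloride channel gene, is the fourth gene counted as rising there (100 and 67 against 0 and 11), but it reached the mean of 20 only through those libraries, and with no filter its adjusted p was 0.0535. Of the 10 other aquaporins, Aqp8 and Aqp11 reached a mean of 20 and neither passed with limma in either knock-down, with an unadjusted p under 0.05 for 0 of the 2 in the Ntn1 and 1 in the Unc5b knock-down.

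Among 12 other epithelial serine proteases tested, the Ntn1 knock-down had 3 that rose and 2 that fell. The Unc5b knock-down had 3 that rose and 1 that fell. These were 41.7% and 33.3% of the list genes tested, against 15.1% and 12.0% of all genes tested. Tmprss11e, a membrane serine protease gene of stratified epithelium, was at 5131 and 5226 in the Ntn1 knock-down, 2154 and 1883 in the Unc5b knock-down, against 843 and 1308 in the empty vector (2.30 ± 0.19, adjusted p = 0.00035, and 0.94 ± 0.19, adjusted p = 0.0173). The groups differed from each other too, the Ntn1 knock-down being higher than the Unc5b knock-down (adjusted p = 0.00674). The kallikrein gene Klk8 rose in both (adjusted p = 0.00332 and 0.0186) and Klk6 in the Ntn1 knock-down (509 and 339 against 75 and 25, adjusted p = 0.00853), while Klk10 fell in both (311 and 336, 256 and 317, 713 and 503; adjusted p = 0.0263 and 0.015). Prss22 rose in the Unc5b knock-down (2150 and 1932 against 1134 and 1171, adjusted p = 0.00404), and Prss23 fell in the Ntn1 knock-down (238 and 208 against 393 and 553, adjusted p = 0.0137). Tmprss4, another protease known to act on ENaC, was at 128 and 214, 58 and 60, and 77 and 160 and did not pass in either.

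Among 13 tested protease substrates and other inhibitors, the Ntn1 knock-down had 6 that rose and 0 that fell. The Unc5b knock-down had 3 that rose and 0 that fell. These were 46.2% and 23.1% of the list genes tested, against 15.1% and 12.0% of all genes tested. F2rl1, the gene of a receptor that is switched on by cleavage with such proteases, was at 987 and 1116, 1034 and 973, and 568 and 480 (adjusted p = 0.00334 and 0.0055). Serpine2, which encodes an inhibitor of prostasin, was at 2849 and 2856 in the Ntn1 knock-down against 1232 and 741 in the empty vector (1.57 ± 0.21, adjusted p = 0.00223). Hgfac, a protease gene whose product the Spint1 inhibitor blocks, was at 76 and 131 against 22 and 9, but it too reached the mean of 20 only through the Ntn1 knock-down, and its adjusted p of 0.0271 became 0.116 with no filter. Plaur, the urokinase receptor gene, was at 2256 and 2324 against 1189 and 734 (adjusted p = 0.00569). Sdc1, a heparan sulfate proteoglycan gene, rose in both (adjusted p = 0.000934 and 0.0186), and Plau, the urokinase gene, in the Unc5b knock-down (24028 and 21015 against 11501 and 15642, adjusted p = 0.0178).

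**Figure D4:**
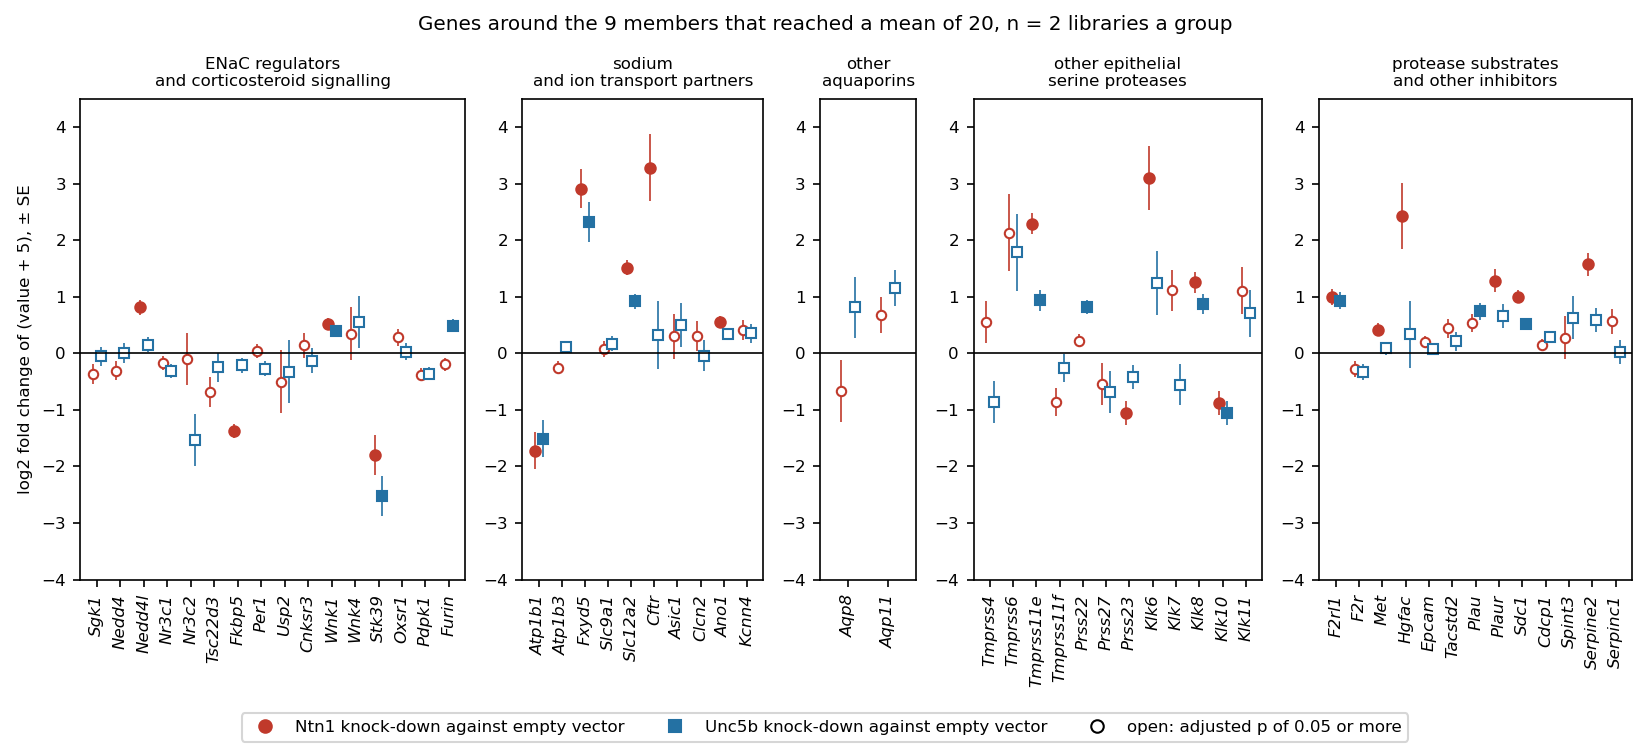
Log2 fold change of (value + 5) against the empty vector, with bars of 1 SE and n = 2 libraries a group, for 53 of the 54 genes of the 5 lists that reached a mean of 20 (circles, Ntn1 knock-down; squares, Unc5b knock-down). Filled symbols passed an adjusted p under 0.05 with limma, 15 above and 5 below 0 in the Ntn1 knock-down and 10 above and 3 below 0 in the Unc5b knock-down.

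Between the knock-downs, 7 of the 54 genes were higher and 3 (Fkbp5, Furin and Prss22) lower in the Ntn1 than in the Unc5b knock-down, 18.5% against 7.10% of all genes tested. Of the calls with limma against the empty vector, 6 of 20 in the Ntn1 knock-down (Fkbp5, Fxyd5, Sdc1, Serpine2, Slc12a2 and Tmprss11e) and 5 of 13 in the Unc5b knock-down (F2rl1, Fxyd5, Prss22, Slc12a2 and Stk39) passed under each of the 15 alternatives tried, and 0 of the 10 between the knock-downs did. Without Ntn1 knock-down library 1 or 2, 13 of the 20 calls in the Ntn1 knock-down and each of the 10 between the knock-downs were lost, as were 7 of the 13 in the Unc5b knock-down. Those 13 also lost 7 calls without Unc5b knock-down library 1, 8 without its library 2 and 4 without empty vector library 2. Exons of Nedd4l, Furin, Atp1b1, Cftr, Klk8, Prss23 and Tmprss4 overlap those of annotated genes on the other strand, so their values are uncertain while the strand setting is not given. Exons of Fxyd5 overlap the microRNA gene Mir7050 on the same strand, which no strand setting would separate.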

How the data were processed

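RNA of sorted cells was made into 6 libraries, 2 in each of 3 groups, by the Ovation Solo method, per the labels' protocols. The authors' deposited values are a score, being whole numbers with library totals near 20 M, and so scaled and rounded. The submitters' processing notes name STAR, Picard, HTSeq and GRCm38 (mm10), while annotation, strand, duplicate and scaling settings are not stated there. Every value in each library (100%) was a whole multiple of 1 step within a rounding tolerance of 0.5, where 32.7% to 50.9% would be by chance. The steps, 1.97 to 3.06, gave the reads per gene and the depth. A floor of 3 reads is 5.90 to 9.17 in the scaled unit, for counting error only.

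A 3-group linear model was fitted with limma 3.58.1 in R 4.3.3 to log2(value + 5) of 15330 genes with a mean of at least 20, with a variance trend, 3 residual and 5.33 prior degrees of freedom, 2-sided tests and Benjamini-Hochberg adjustment over all genes. This log2 scale understates the change of low genes. The procedure was run on simulated libraries in which every gene had the same spread beyond counting error. That setting does not model the wide gaps between libraries seen for Scnn1a and Scnn1g, so nothing about these genes is read from it. Exact permutation of 2 against 2 libraries was not used, since it cannot give a small p. Positions and exon lengths came from GENCODE M21 (GRCm38), in which 49412 of 49671 identifiers were found. The members and lists were chosen with earlier results of these data known. All members are named, with the called list genes of largest fold change, up to 4 a list and direction, and genes in small counts. An allele of the cells, a marker gene and a list gene are not reported here. Sgk1, Tsc22d3, Nr3c1, Per1, Tmprss4, Csf1r, Cdh5, Cdh1, Krt5, Krt14, Krt18 and Trp63 were named after their values were seen. Alternatives were the pseudocount (1, 20), the filter (none, 50), TMM and median-of-ratios scaling, no variance trend, a replicate block, each library left out, and voom on the recovered reads, the last chosen after the data were seen.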

Additional observations from a re-analysis of the deposited data

How the results depend on the processing

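Over the 15 alternatives (14 for Scnn1g, which a mean of at least 50 removes) Aqp5 ranged from -3.73 to -3.21 (log2 fold change) in the Ntn1 and from -4.03 to -3.09 in the Unc5b knock-down, Spint1 from -0.77 to -0.46 and from -0.88 to -0.64, Scnn1a from -4.44 to -2.60 and from -3.39 to -1.54, and Scnn1g from -3.88 to -1.49 and from -2.59 to -0.20. The extremes of Scnn1a came without empty vector library 1 or 2. Prss8 changed sign in the Ntn1 knock-down without empty vector library 2 (0.06), and in the Unc5b knock-down without that library (0.17) or without Unc5b knock-down library 2 (0.21), and Spint2 in the Unc5b knock-down without empty vector library 1 (-0.01).

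Genes called numbered 2314 in the Ntn1 knock-down, 1835 in the Unc5b knock-down and 1088 between the knock-downs, against 1289, 791 and 302 with no filter and 1462, 1115 and 454 without the variance trend. List genes called numbered 20, 13 and 10, against 12, 5 and 1 with no filter, and without the trend 6 in the Unc5b knock-down and 3 between the knock-downs. With a replicate block there were 1465, 1102 and 459 genes called, and 18, 11 and 3 list genes. The labels do not say what the numbers share, and deviations of same-numbered libraries correlated at 0.16 between the Ntn1 knock-down and the empty vector, -0.17 between the knock-downs and -0.45 between the Unc5b knock-down and the empty vector, so they were not taken as pairs. With 1 library left out, genes called ranged from 507 to 2769, from 680 to 2428 and from 34 to 1842, and list genes from 7 to 27, from 6 to 22 and from 0 to 14. These fits take a group left with 1 library to have the spread of the remaining groups. No list gene called changed direction. Voom on the recovered reads gave 2126, 1742 and 979 genes and 21, 13 and 9 list genes. The cause of these changes was not tested. Depth limits Scnn1b and Scnn1g most.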
